A study of Homo sapiens with 6 samples.

Results

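Interferon-stimulated antiviral genes are described here in the human line PC-3, which derives from a bone metastasis of prostate cancer, after exposure to trans-Gnetin H (TGH), a resveratrol trimer. The 9 genes are OAS1, OAS2, OAS3, IFIT1, IFIT2, IFIT3, ISG15, IFI6 and IRF9. They were picked by symbol from a table of 18780 gene symbols, with earlier results of these data known, and all 9 are listed. Cells were grown in DMEM/F12 medium with fetal bovine serum and given TGH at 2.5 µM for 24 h (TGH, n = 3) or the solvent dimethyl sulfoxide (DMSO, n = 3). Both groups are the same single line with no other agent or allele named, and nothing states that replicates came from separate cultures, so p-values measure the spread between these libraries only.

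Type I interferons bind a receptor served by the kinases JAK1 and TYK2, which phosphorylate STAT factors. Phosphorylated STAT2 joins IRF9 in the complex ISGF3, which binds the interferon-stimulated response element in the promoters of antiviral genes. In resting epithelial and cancer cells many of these genes are transcribed at a low basal level without added interferon. The OAS enzymes make 2'-5' oligoadenylates that set off the breakdown of RNA in infected cells, the IFIT proteins bind foreign RNA, ISG15 is a ubiquitin-like modifier, and IFI6 is a small membrane protein that restrains cell death.

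The promoters of the genes are shown because ISGF3 binds the response element in promoters of antiviral genes. RefSeq windows (GRCh38.p14) running from 250 bases before to 50 bases after the annotated start were found for 7 of the 9 genes, with 2 starts for IFIT3, and none for OAS2 and IFIT2. Both strands were searched for a core of GAAA and GAAA with any 2 bases between them, for a variant with 1 base between them (GAAANGAAA), and for the STAT palindrome TTCNNNGAA. Matches of these may overlap. The variant was added after the OAS1 window had been read. The core stood in 3.57% of all 35116 promoter windows, the variant in 3.12% and the palindrome in 7.66%. For these genes, the core stood in 6 of 8 windows, belonging to 5 of the 7 genes. Capitals below mark matches, and every stretch ends at or before the start.
OAS3 (chr12:112938311-112938473, plus strand): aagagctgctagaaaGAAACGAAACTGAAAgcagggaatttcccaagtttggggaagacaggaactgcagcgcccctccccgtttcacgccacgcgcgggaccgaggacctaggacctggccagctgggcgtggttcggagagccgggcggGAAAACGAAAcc
OAS1 (chr12:112906930-112906961, plus strand): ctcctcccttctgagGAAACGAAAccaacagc
IFIT1 (chr10:89392492-89392544, plus strand): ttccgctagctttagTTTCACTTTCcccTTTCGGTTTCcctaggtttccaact
IFIT3, upstream start (chr10:89327826-89327899, plus strand): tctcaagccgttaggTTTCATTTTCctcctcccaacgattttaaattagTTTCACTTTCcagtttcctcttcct
IFIT3, downstream start (chr10:89332420-89332507, plus strand): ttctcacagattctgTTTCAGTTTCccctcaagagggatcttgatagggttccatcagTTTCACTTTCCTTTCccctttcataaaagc
ISG15 (chr1:1013369-1013414, plus strand): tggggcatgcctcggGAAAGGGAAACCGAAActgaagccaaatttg
IFI6 (chr1:27672261-27672363, minus strand): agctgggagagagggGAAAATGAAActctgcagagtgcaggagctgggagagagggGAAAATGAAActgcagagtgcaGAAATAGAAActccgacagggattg
IRF9 (chr14:24161187-24161225, plus strand): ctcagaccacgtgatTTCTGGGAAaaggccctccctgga

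The OAS3 window held the core at 143 and at 12 bases before the start, the first overlapped by the variant. OAS1 had only the variant, 17 bases before its start, and a palindrome match at 168 bases that is not printed. IFIT1 and both IFIT3 starts carried the core on the other strand, read as TTTC and TTTC, 2 times each, and the downstream IFIT3 start also held the variant. ISG15 had 2 overlapping cores at 113 and 107 bases, and IFI6 had 3. IRF9 had no core in its window and 1 palindrome match at 63 bases. These are matches of letters and not shown to be bound in these cells.

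For the series as a whole, 12018 genes had a mean of at least 1 TPM (a transcript abundance scaled by length and by library total) and were tested. The share called at an adjusted p under 0.05 was 55.2%, with 28.9% higher and 26.3% lower, so a call is common in these data. TXNIP was at 5.76 ± 0.276 TPM with TGH and 105 ± 2.37 TPM in DMSO, and HSPA5 at 642 ± 5.74 TPM with TGH and 203 ± 2.69 TPM in DMSO (SD, n = 3 each). DMSO replicates 1 and 2 list 3074 and 3185 genes at 0, whereas the other 4 libraries list 1342 to 1530, and read depth is unknown. All 6 epithelial markers were present, summing to between 1666 and 1686 TPM with TGH and between 2012 and 2101 TPM in DMSO. The 8 listed immune cell markers summed to at most 0.721 TPM with TGH and 1.26 TPM in DMSO, with PTPRC at or below 0.129 TPM.

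With TGH, OAS3, IFIT1 and IRF9 fell, no gene of the 9 rose past the threshold, and OAS1, OAS2, IFIT2, IFIT3, ISG15 and IFI6 were not called. In limma, 5 of the 9 had an unadjusted p under 0.05, beside 7327 of all 12018 genes tested. The 3 lower genes are 33.3% of the 9, beside 26.3% of all genes tested. All calls together are also 33.3%, beside 55.2% of all genes tested. The median difference of the 9 genes was -0.12 on the log2(TPM + 1) scale, against 0.02 for all genes tested. Libraries of the groups did not overlap for 8 of the 9 genes, where 64.4% of all genes tested did not overlap. Differences on this scale understate the change of low genes, and in bulk RNA fewer expressing cells and less RNA per cell cannot be told apart.

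**Figure D1:**
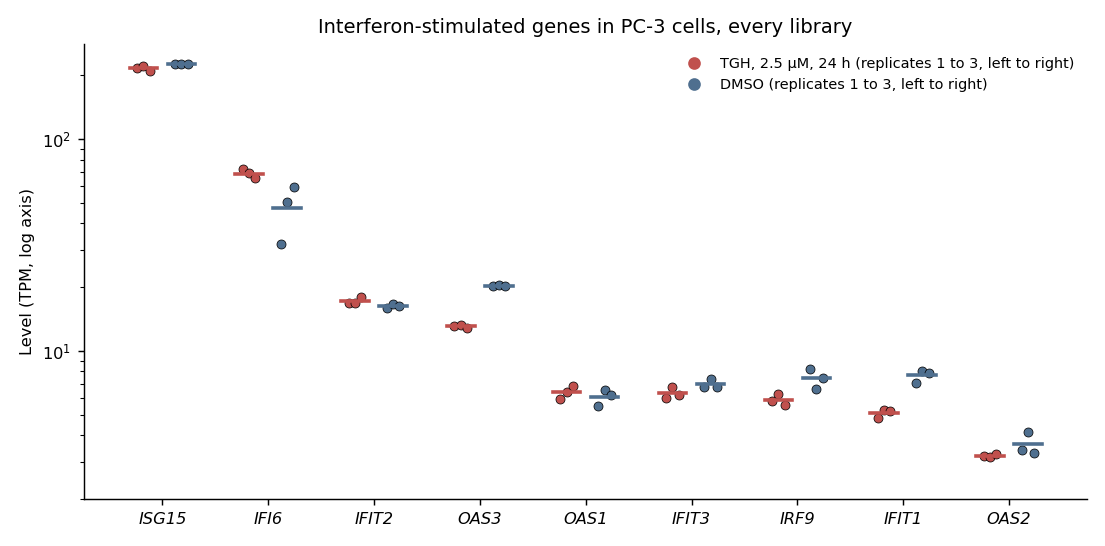
Level of each of the 9 genes in every library (TPM, log axis), TGH left and DMSO right within each gene, with points for replicates 1 to 3 and a line at the group mean. OAS3 and IFIT1 lie apart between groups, ISG15 is the most abundant at 209 to 227 TPM, and IFI6 has its widest spread in DMSO.

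The levels span a wide range. ISG15 was by far the most abundant, with means of 216 TPM with TGH and 226 TPM in DMSO. IFI6 came next at 68.6 TPM with TGH and 47.2 TPM in DMSO. IFIT2 and OAS3 followed, in opposite orders: with TGH IFIT2 lay above OAS3 (17.2 and 13.1 TPM), while in DMSO OAS3 lay above IFIT2 (20.3 and 16.2 TPM), and within either group the libraries of the pair did not overlap. OAS1, IFIT3 and IRF9 formed a group whose neighbours overlapped with TGH, at means of 6.37, 6.30 and 5.86 TPM. In DMSO the neighbours IFIT1, IRF9 and IFIT3 overlapped at 7.65, 7.45 and 6.96 TPM. OAS2 was the lowest of the 9, at 3.20 TPM with TGH and 3.62 TPM in DMSO.

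OAS3, the largest of the oligoadenylate synthetases, showed the clearest difference of the 9 genes. It had 13.1, 13.2 and 12.8 TPM in TGH replicates 1 to 3, against 20.3, 20.4 and 20.3 TPM in DMSO replicates 1 to 3. Every TGH library was below every DMSO library, and the spread within groups was small, with coefficients of variation of 1.44% with TGH and 0.542% in DMSO. The mean with TGH was 64.3% of that in DMSO, and the difference was -0.60 (SE 0.029, 95% confidence interval -0.67 to -0.53, limma adjusted p = 1.51e-05). It was called in all 17 fits, with values from -0.63 to -0.49.

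OAS1, the smallest of these enzymes, did not follow. Its TGH libraries had 5.90, 6.37 and 6.83 TPM and its DMSO libraries 5.49, 6.51 and 6.20 TPM, so that the groups overlapped. The difference was 0.06 (95% confidence interval -0.11 to 0.24, adjusted p = 0.507), and its sign turned under quantile normalization (-0.028).

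OAS2, the middle member of the family in size, had 3.18, 3.16 and 3.25 TPM with TGH and 3.42, 4.14 and 3.30 TPM in DMSO. The groups did not overlap, but DMSO replicate 2 stood well above the other DMSO libraries. The difference of -0.13 (95% confidence interval -0.32 to 0.05) was not called (adjusted p = 0.182), although quantile normalization called it at -0.24 (adjusted p = 0.0373).

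Because OAS1, OAS3 and OAS2 lie side by side on chromosome 12, the gaps between their log2(TPM + 1) values within a library were also compared. These gaps are smaller than log2 ratios of TPM, because 1 is added to each value. They were compared after the values were seen, and their differences follow from the single-gene differences given above. OAS3 minus OAS1 was 1.03, 0.95 and 0.82 with TGH and 1.71, 1.51 and 1.56 in DMSO, a difference of -0.66. OAS3 minus OAS2 was 1.75, 1.77 and 1.71 with TGH and 2.27, 2.06 and 2.31 in DMSO, a difference of -0.47. Both gaps separated the groups completely, at the smallest p that 3 libraries against 3 allow (two-sided exact permutation test, p = 0.1, adjusted p = 0.12 over 6 pairs within families). OAS1 minus OAS2 differed by 0.19 with overlapping groups (two-sided exact permutation test, p = 0.2).

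The nearest listed protein-coding neighbours of the OAS cluster on one side are RPL6 and PTPN11. RPL6, a ribosomal protein, rose by 0.13 (adjusted p = 0.000514), a call lost under quantile normalization, and PTPN11, a phosphatase, fell by 0.10 (adjusted p = 0.015), also lost there. DTX1 and RASAL1 on the other side were under the minimum of 1 TPM.

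OASL, a synthetase-like protein without that enzymatic activity, lies elsewhere and fell. It had 5.86, 5.74 and 5.78 TPM with TGH and 10.2, 10.5 and 11.1 TPM in DMSO. The groups lay well apart, with a difference of -0.77 (SE 0.043, adjusted p = 2.32e-05). ABCE1, known for its role in ribosome recycling, fell by 0.28 (adjusted p = 0.000649), and PDE12, which degrades oligoadenylates, fell by 0.32 (adjusted p = 0.00394). All 3 kept partners of the OAS system were called lower, where 26.3% of all genes tested were lower.

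Among the IFIT genes, IFIT1, which binds RNA lacking cap methylation, fell. It had 4.84, 5.23 and 5.20 TPM with TGH, against 7.07, 8.02 and 7.88 TPM in DMSO. No library of either group reached the range of the other, and the mean with TGH was 66.5% of that in DMSO. The difference was -0.51 (SE 0.058, 95% confidence interval -0.64 to -0.37, adjusted p = 0.000476), and it was called in all 17 fits, with values from -0.58 to -0.33.

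IFIT2, a partner of IFIT1 and IFIT3 in RNA-binding complexes, had 16.9, 16.8 and 18.04 TPM with TGH and 15.9, 16.6 and 16.3 TPM in DMSO. The TGH libraries were all slightly higher, by less than 1 TPM on average. The difference of 0.08 (95% confidence interval -0.01 to 0.17) was not called in any of 17 fits (adjusted p = 0.125 in the reported fit). In GENCODE 29, 7.50% of the 50-base words of IFIT2 transcripts are shared with other genes, all of them with the overlapping same-strand gene AL353751.1, so its level carries that uncertainty.

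IFIT3, which stabilises IFIT1, had 6.001, 6.74 and 6.16 TPM with TGH and 6.76, 7.36 and 6.76 TPM in DMSO. The groups did not overlap, but the highest TGH library was close to the lowest DMSO library. Its difference of -0.12 (95% confidence interval -0.26 to 0.01) was not called (adjusted p = 0.102), except under quantile normalization (-0.20, adjusted p = 0.0248).

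On the same log2(TPM + 1) scale, IFIT1 minus IFIT2 was -1.61, -1.51 and -1.62 with TGH and -1.06, -0.96 and -0.96 in DMSO, a difference of -0.59. IFIT1 minus IFIT3 differed by -0.38 between the groups, and IFIT2 minus IFIT3 by 0.20. All 3 gaps separated the groups (two-sided exact permutation test, p = 0.1 each, adjusted p = 0.12, the design's floor before adjustment being 0.1). The gap differences again follow from those of the single genes.

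IFIT5, the member of this cluster nearest to IFIT1 on its far side, fell too. It had 4.97, 4.93 and 4.90 TPM with TGH and 6.97, 6.09 and 6.83 TPM in DMSO, a difference of -0.36 (SE 0.055, adjusted p = 0.00166). IFIT1B, another relative, was at or below 0.0346 TPM and listed at 0 in all DMSO libraries, while IFIT1 shares 1.02% of its 50-base words with other genes, mostly IFIT1B. LIPA, a lysosomal lipase gene on the opposite strand that overlaps the cluster in GENCODE 29, rose by 0.35 (adjusted p = 0.000791). The library kit kept the strand, but how strand was used in counting is not given in the sources used here. Opposite-strand genes also overlap OAS1, OAS2 and OAS3 (AC004551.1), ISG15 (AL645608.1 and AL645608.3) and IFI6 (AL445490.1). The same limit holds for these members. FAS, PANK1, CH25H and SLC16A12, the nearest listed neighbours outside, were not called or were under 1 TPM.

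**Figure D2:**
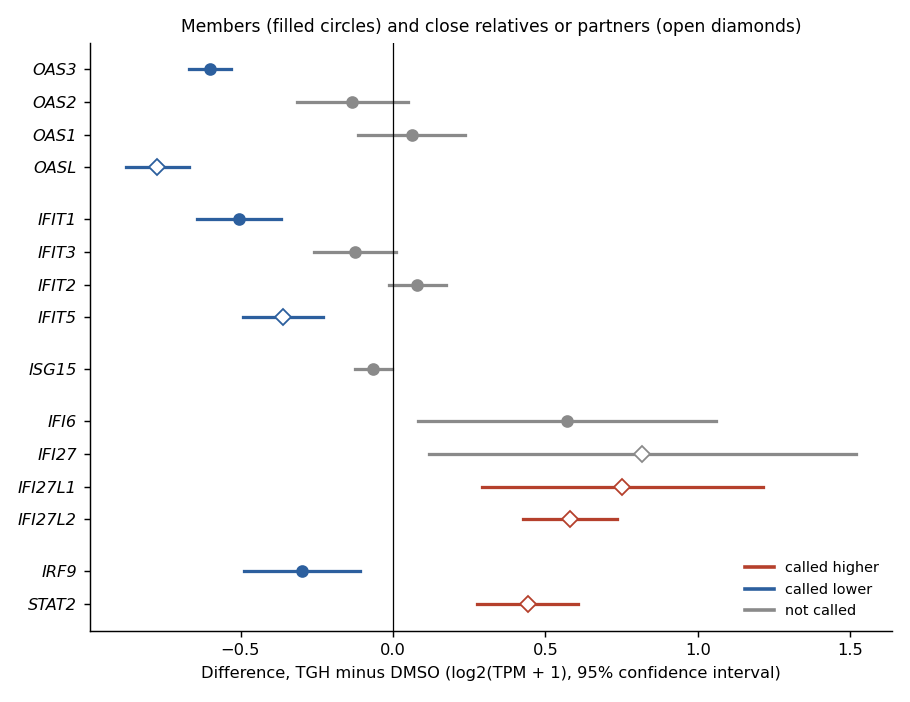
Difference between TGH and DMSO for the 9 genes (filled circles) and close relatives or partners (open diamonds), on the log2(TPM + 1) scale with 95% confidence intervals from limma. OAS3, OASL, IFIT1, IFIT5 and IRF9 lie below 0 and are called, while IFI6 at 0.57 and IFI27 at 0.82 have wide intervals and are not.

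ISG15, which is attached to proteins and also secreted, had 217, 222 and 209 TPM with TGH, against 227, 225 and 226 TPM in DMSO. All TGH libraries lay below all DMSO libraries, by a small margin. The mean with TGH was 95.6% of that in DMSO, and the difference of -0.06 (SE 0.025, 95% confidence interval -0.12 to -0.005) was not called (adjusted p = 0.0655). It was called after median scaling (-0.10, adjusted p = 0.0151) and without TGH replicate 2 (-0.09, adjusted p = 0.0332).

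Of the machinery that attaches and removes ISG15, 2 of 6 kept genes were lower and 0 higher. An unadjusted limma p under 0.05 was found for 5 of the 6, beside 7327 of all 12018 genes tested. The lower share of 33.3% stands beside 26.3% of all genes tested. ARIH1 and TRIM25, both ubiquitin ligases, fell by 0.27 (adjusted p = 0.00268) and 0.20 (adjusted p = 0.00289). UBE2L6, the conjugating enzyme, had 0.11 (adjusted p = 0.0641) and HERC5, the main ligase, -0.25 (adjusted p = 0.0736). HERC5 was called lower under 4 other fits, among them DMSO replicate 3 as the only control (-0.43, adjusted p = 0.0204).

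IFI6 was the 1 gene of the 9 with a sizeable positive difference. It had 71.8, 68.9 and 65.1 TPM with TGH, against 32.1, 50.3 and 59.4 TPM in DMSO. The groups did not overlap, yet the DMSO libraries differed widely from each other, with a coefficient of variation of 29.4% in DMSO and 4.92% with TGH. The difference was 0.57 (SE 0.204, 95% confidence interval 0.08 to 1.06) and was not called (adjusted p = 0.0508).

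The size of this difference varied with the control libraries, and its call also varied between fits that kept every library. It was called under quantile normalization (0.62, adjusted p = 0.0363) but not after median scaling (0.54, adjusted p = 0.0587). The difference was 0.32 without DMSO replicate 1 (adjusted p = 0.0152) and 0.76 without DMSO replicate 3 (adjusted p = 0.0169), and it was called in both. Without DMSO replicate 2 it was 0.64 and not called (adjusted p = 0.0707). Against DMSO replicate 3 alone, with the lone control assumed to vary like the TGH libraries, it was 0.20 (adjusted p = 0.0391). DMSO replicate 1, the lowest for IFI6, is also 1 of the 2 libraries with many genes listed at 0, and the part this plays was not tested. IFI6 was positive in all 17 fits and called in 7.

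Its relatives, small membrane proteins of the same family, also had positive differences. IFI27L2 had 54.2, 47.7 and 52.2 TPM with TGH and 33.4, 36.7 and 32.1 TPM in DMSO, a difference of 0.58 (SE 0.065, adjusted p = 0.000425). In this gene DMSO replicate 1 lay between the other DMSO libraries. IFI27L1 had 6.32, 9.22 and 8.44 TPM with TGH and 3.03, 4.98 and 5.13 TPM in DMSO, a difference of 0.75 (adjusted p = 0.0151) that was lost in 3 fits, such as against DMSO replicate 3 alone (0.54, adjusted p = 0.0694).

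IFI27 had 4.47, 4.995 and 4.92 TPM with TGH and 1.02, 2.65 and 3.82 TPM in DMSO, with the same order of DMSO libraries as IFI6 and IFI27L1. Its difference of 0.82 (SE 0.293) was not called (adjusted p = 0.051), and it was 0.27 against DMSO replicate 3 alone (adjusted p = 0.0398). Of the 3 relatives, 2 were called higher and 1 was not called, where 28.9% of all genes tested were higher.

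**Figure D3:**
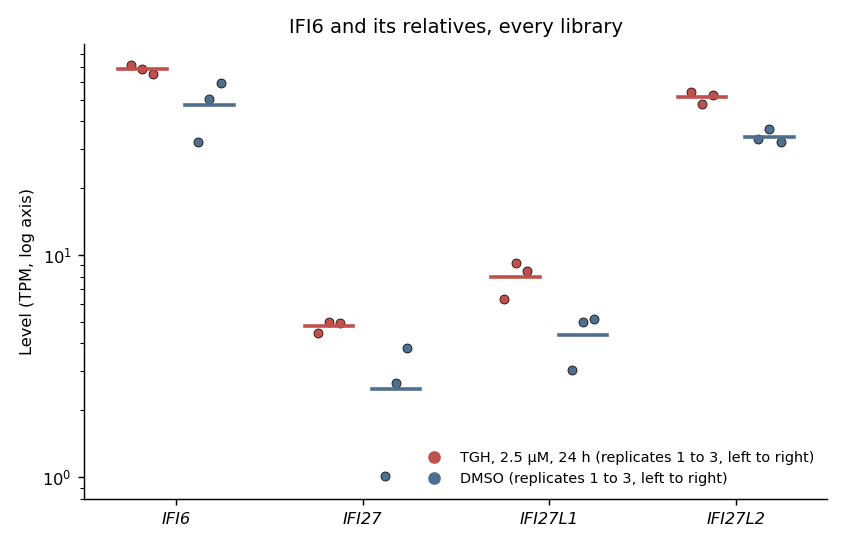
IFI6 and its 3 relatives in every library (TPM, log axis), TGH left and DMSO right, with a line at each group mean. In DMSO, IFI6, IFI27 and IFI27L1 have their lowest value in replicate 1 and their highest in replicate 3, while IFI27L2 does not.

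IRF9, the DNA-binding part of ISGF3, fell modestly. It had 5.78, 6.27 and 5.54 TPM with TGH, against 8.25, 6.63 and 7.48 TPM in DMSO. The groups did not overlap, but the highest TGH library and the lowest DMSO library were close. The mean with TGH was 78.7% of that in DMSO, and the difference was -0.30 (SE 0.079, 95% confidence interval -0.49 to -0.11, adjusted p = 0.0177). The call was lost without TGH replicate 1 (-0.29, adjusted p = 0.0602) and without TGH replicate 3 (-0.26, adjusted p = 0.0652). In GENCODE 29, 43.6% of the 50-base words of IRF9 transcripts are shared with other genes, nearly all with AL136295.5, an overlapping protein-coding gene on the same strand, so reads may be split between them.

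STAT2, a partner of IRF9 in ISGF3, rose, with 15.4, 14.8 and 14.9 TPM with TGH and 12.2, 10.2 and 10.1 TPM in DMSO, a difference of 0.44 (SE 0.070, adjusted p = 0.00193). Every TGH library lay above every DMSO library, and the call held in all 17 fits.

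Among 7 kept STAT and IRF factors, 1 was higher and 1 lower, so that 28.6% were called, beside 55.2% of all genes tested. The higher one was STAT2, and the lower one was IRF3, which acts downstream of nucleic acid sensors and fell by 0.48 (adjusted p = 0.000195). IRF7 had 0.19 (adjusted p = 0.0633) and IRF5 had 0.15 (adjusted p = 0.0779), both not called. IRF7 was called in 3 other fits and IRF5 in 2.

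Of 9 receptor chains and JAK kinases, 5 were higher and 0 lower, where 28.9% of all genes tested were higher. An unadjusted limma p under 0.05 was found for 5 of the 9, beside 7327 of all 12018 genes tested. IL10RB, shared by the receptors of interferon lambda and interleukin 10, rose by 0.47 (adjusted p = 0.000107), TYK2 by 0.31 (adjusted p = 0.000185) and JAK1 by 0.21 (adjusted p = 0.00143). IFNGR2 had 0.10 (adjusted p = 0.0353), a call lost in 9 other fits, the replicate block among them (adjusted p = 0.0836). IFNGR1, named after its values were seen, had 0.20 (adjusted p = 0.0487) with overlapping groups. That call was lost without the filter on low values (adjusted p = 0.0849). The median of this list was 0.16.

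The interferons themselves were barely present. Of 10 sought, 7 are listed and none reached a mean of 1 TPM. IFNB1, the type I interferon made by most cells, had 0.0863, 0.0243 and 0.0205 TPM with TGH and was listed at 0 in all DMSO libraries. IFNE, an interferon of epithelia, had 0.793, 0.880 and 1.05 TPM with TGH, against 0.394, 0.339 and 0.199 TPM in DMSO. Its groups did not overlap, and without the filter on low values it differed by 0.54 (adjusted p = 0.00333).

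IFNL1 had at most 0.0237 TPM with TGH and 0.190 TPM in DMSO, IFNA1 was listed at 0 in all but DMSO replicate 1 (0.170 TPM), and IFNL2 and IFNL3 in all but DMSO replicate 3. IFNK was above 0 in TGH replicate 1 alone (0.0146 TPM). Read depth is unknown, so what a value listed as 0 means at these levels cannot be said.

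In a list of nucleic acid sensors, their adaptors and related enzymes, more genes were lower than higher. Of 12 kept, 7 were lower and 1 was higher, beside 26.3% lower among all genes tested, with a list median of -0.13. IKBKE, a kinase that activates IRF3, fell by 0.42 (adjusted p = 0.000176), ADAR, which edits double-stranded RNA, by 0.29 (adjusted p = 0.0013), and DDX58, the sensor RIG-I, by 0.29 (adjusted p = 0.00944). MB21D1, the DNA sensor cGAS, fell by 0.24 (adjusted p = 0.0065). The DDX58 call was lost against DMSO replicate 3 alone (-0.31, adjusted p = 0.0546).

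Other antiviral genes went both ways. Of 31 kept, 8 were higher (25.8%), 5 were lower (16.1%) and 18 were not called, beside 28.9% higher and 26.3% lower among all genes tested. The median was 0.03. TRIM14, an adaptor of antiviral signalling, fell by 0.61 (adjusted p = 2.72e-05), DDX60L, a helicase-like protein, rose by 0.74 (adjusted p = 6.03e-05) and TRIM5, a retroviral restriction factor, rose by 0.57 (adjusted p = 0.000109). IFITM3, which blocks virus entry, was at 307 ± 7.09 TPM with TGH and 254 ± 6.16 TPM in DMSO (SD, n = 3 each), a rise of 0.27 (adjusted p = 0.000212). IFI44, named after its values were seen, fell by 0.76 (adjusted p = 0.00027), while MX1, also named afterwards, had 0.09 and was not called (adjusted p = 0.200).

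MHC class I and antigen processing genes were called higher more often than lower. Of 16 kept, 8 were higher (50%) and 2 lower (12.5%), beside 28.9% and 26.3% of all genes tested, with a median of 0.17. ERAP1, which trims peptides in the endoplasmic reticulum, rose by 0.71 (adjusted p = 0.000113), B2M, the light chain, by 0.20 (adjusted p = 0.00023) and HLA-E by 0.26 (adjusted p = 0.000207), while TAP2, a peptide transporter subunit, fell by 0.25 (adjusted p = 0.000203). HLA-B, HLA-C and HLA-F, named after their values were seen, rose by 0.36, 0.34 and 0.51 (adjusted p of 0.00117, 0.00169 and 0.037). HLA genes are similar in sequence and variable between people, so reads may be split among them.

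Of 8 feedback inhibitors, 2 were higher (25.0%) and 1 lower (12.5%), beside 28.9% and 26.3% of all genes tested. SOCS3, which inhibits JAK kinases, rose by 0.48 (adjusted p = 0.000216) and PTPN6, a phosphatase, by 0.28 (adjusted p = 0.00819). PTPN11, already given above as a listed neighbour of the OAS cluster, was the lower one, and PTPN2 had 0.08 (adjusted p = 0.0662).

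**Figure D4:**
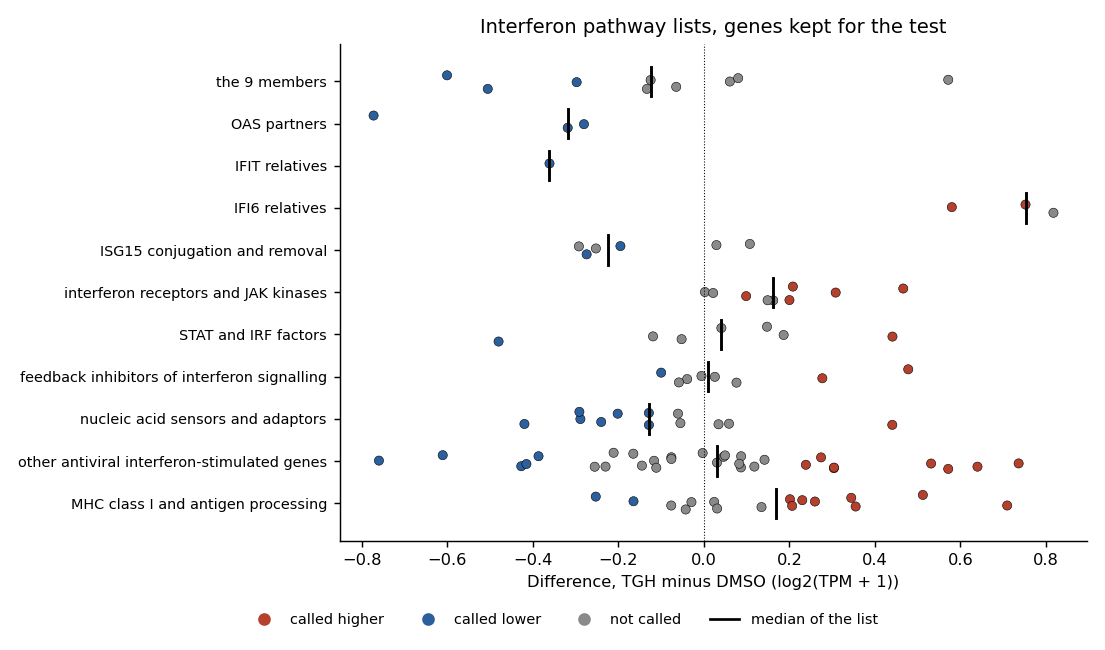
Differences between TGH and DMSO (log2(TPM + 1)) for the 9 genes and for the kept genes of each interferon pathway list, 1 point per gene coloured by its call, with a black line at the list's median. List medians run from -0.36 for the lone IFIT relative to 0.75 for the IFI6 relatives, with the 9 genes at -0.12.

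Over all pathway lists together, 96 genes were kept, of which 27 were higher (28.1%) and 22 lower (22.9%), with a median of 0.03. These shares are near those of all genes tested, 28.9% and 26.3%, with a median of 0.02.

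The 9 genes were also followed through the alternative fits. OAS3 and IFIT1 were called lower in all 17 fits and IRF9 in 15. IFI6 was called higher in 7, ISG15 lower in 2, and OAS2 and IFIT3 lower in 1 each, while OAS1 and IFIT2 were called in 0 (OAS2 was under the minimum in the fit that needed a mean of 5 TPM).

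**Figure D5:**
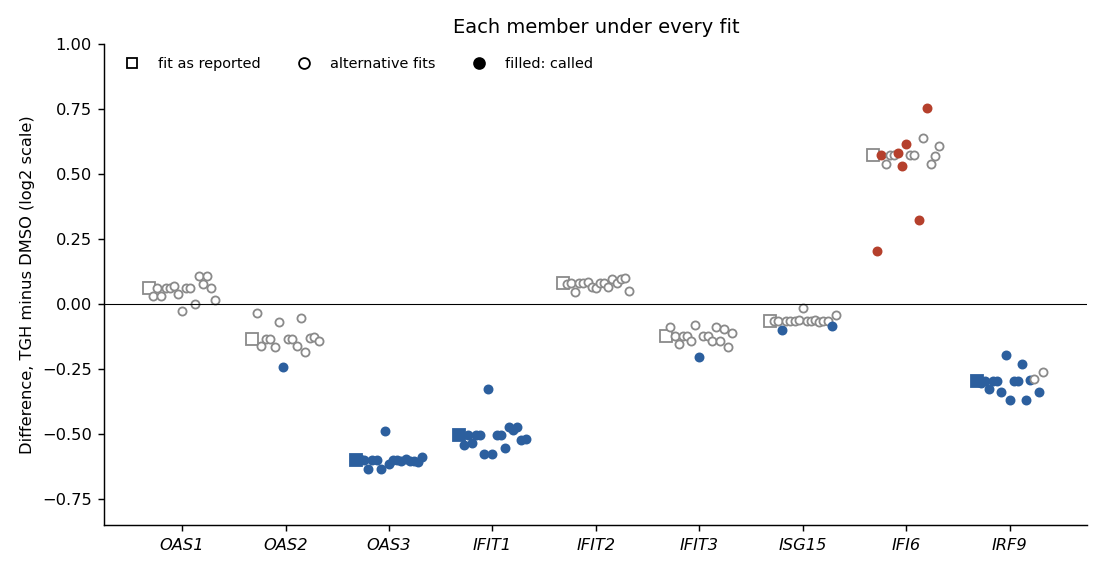
Difference of each of the 9 genes under the reported fit (square) and 16 alternatives (circles), filled where called at an adjusted p under 0.05. OAS3 and IFIT1 are filled throughout, IFI6 runs from 0.20 to 0.76, and the other genes stay within a narrower range.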

How the data were processed

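RNA of 6 PC-3 libraries was measured by RNA sequencing after ribosomal RNA depletion with a strand-keeping kit, per the labels' protocols. The authors deposited log2(TPM + 1) values, with gene symbols as rows and libraries as columns. That the offset is 1 follows from a smallest deposited value of 0. Per the submitters' processing notes, hg19 was used. The sources used here do not give the aligner, quantifier, annotation or gene filters. Listed TPM sum to between 502380 and 518870 per library, so part of each library is outside the table, and TPM keeps no depth.

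A gene entered the comparison when its mean reached 1 TPM. The test was limma 3.58.1 (R 4.3.3) with its expression trend, two-sided. Its p-values were adjusted by Benjamini-Hochberg over 12018 genes, and 0.05 was the threshold for calling a gene. Differences are TGH minus DMSO. The step was tested on simulated tables in which far fewer genes changed than were called here. That test therefore does not show how the step performs on these data. Sequences come from RefSeq (GRCh38.p14), and shared 50-base words and overlapping genes from GENCODE 29 on GRCh38, neither being the build of the table. Gaps between log2(TPM + 1) values within families were compared with an exact permutation test in scipy 1.17.1, added after the values were seen. A planned protein comparison was not run. Figures were drawn with matplotlib 3.10.9.

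The members and lists were chosen with earlier results of these data known. Named are the 9 genes, up to 4 kept genes of smallest p per list, the interferon ligands, STAT2, 2 listed neighbours on each side of both clusters, TXNIP and HSPA5. Outside this rule, IFI44, MX1, HLA-B, HLA-C, HLA-F, IFNGR1, PTPRC and the cluster genes LIPA and IFIT1B were named after their values were seen. Some genes of these lists are counted but not reported here by name. Alternatives were other pseudocounts, filters, scalings and variance models, a replicate block, each library left out, and DMSO replicate 3 as the only control.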

Additional observations from a re-analysis of the deposited data

How the results depend on the processing

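The count of lower genes among the 9 was 3 in the reported fit, 5 under quantile normalization, where OAS2 and IFIT3 joined, and 2 to 4 when each library was left out. The count of higher genes was 0, against 1 (IFI6) with DMSO replicate 3 as the only control, a mean of at least 5 TPM, a pseudocount of 0.1 or 5, or quantile normalization, and 0 to 1 when each library was left out. In limma, 5 of the 9 had an unadjusted p under 0.05, beside 7327 of all 12018 genes tested. OAS1 turned to -0.028 under quantile normalization, and of the neighbours FAS turned to 0.14 against DMSO replicate 3 alone and PANK1 to -0.15 under quantile normalization. The cause was not tested. Leaving out each library gave 20 to 29 higher and 19 to 24 lower pathway genes, and 2858 to 3535 higher and 2557 to 3175 lower genes in all.

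Replicate numbers are shared by the groups, and 3 libraries per group are too few to decide whether the numbers pair them. Deviations of same-numbered libraries correlated at 0.009, 0.05 and 0.23 over 12018 genes. Those of differently numbered libraries correlated between -0.16 and 0.10, and not every library correlated best with its own number. With the replicate block, 0 of the 9 were higher and 3 lower, and 3273 genes in all were higher and 2958 lower. Read depth is unknown, which limits what the ligands and other low genes can show.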
